A study of Mus musculus with 6 samples.

Results

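The genes described here encode the core of the splicing machinery and its best known regulators: serine- and arginine-rich (SR) proteins, heterogeneous nuclear ribonucleoproteins (hnRNPs), Sm and U snRNP proteins, the SF3A and SF3B complexes, U2AF and the Prpf factors. They were chosen by symbol, as every gene of the expression table whose name begins with Srsf, Hnrn, Snrp, Sf3a, Sf3b, U2af or Prpf, without pseudogenes. The rule gave 66 of the 14004 listed genes, together with 198 of 28280 skipped exon events and 22 of 2528 retained intron events in the authors' splicing tables. The 66 genes were 10 SR genes, 20 hnRNP genes, 12 Snrp genes, 9 SF3A and SF3B genes, 2 U2AF genes and 13 Prpf genes, and all 66 passed the filter on low values. Stranded polyadenylated RNA was sequenced from the heart ventricle of C57BL6 mice at P1, the first day after birth. WT and Rbpms knockout (Rbpms KO) mice gave 3 libraries each. No other treatment or allele is named for either genotype, and the labels do not say how the knockout was made or whether it is limited to a cell type. Rbpms encodes an RNA-binding protein that regulates splicing in muscle cells.

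The spliceosome removes introns by assembling small nuclear RNAs and their proteins on each pre-mRNA. U1 snRNP marks the 5′ splice site, U2AF reads the pyrimidine tract and the AG at the 3′ end of the intron, and SF3A and SF3B hold U2 snRNP at the branch point before the tri-snRNP, with the Prpf factors, brings the catalytic core. SR proteins mostly favour and hnRNPs often hinder the use of nearby splice sites, and many of these genes limit their own output through exons that carry an early stop codon.

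Expression was given as RPKM, a read count scaled by gene length and library total, so levels can be set beside each other across genes. The mean level over 6 libraries ran from 2.46 RPKM for Prpf40b, which encodes a U1-associated factor, to 113 RPKM for Hnrnpa2b1, an hnRNP that packages nuclear RNA. The median over the 66 genes was 17.3 RPKM, against 4.72 RPKM over all 12911 genes tested. The hnRNP genes had the highest median level of the families with 45.1 RPKM, followed by the SR genes with 35.8 RPKM, U2AF with 17.3 RPKM, the Snrp genes with 12.2 RPKM, SF3A and SF3B with 11.1 RPKM and the Prpf genes with 9.8 RPKM. Levels differed widely inside each of the larger families, as in the SR genes, where Srsf5 had a mean of 73.7 RPKM and Srsf4 of 4.26 RPKM.

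**Figure D1:**
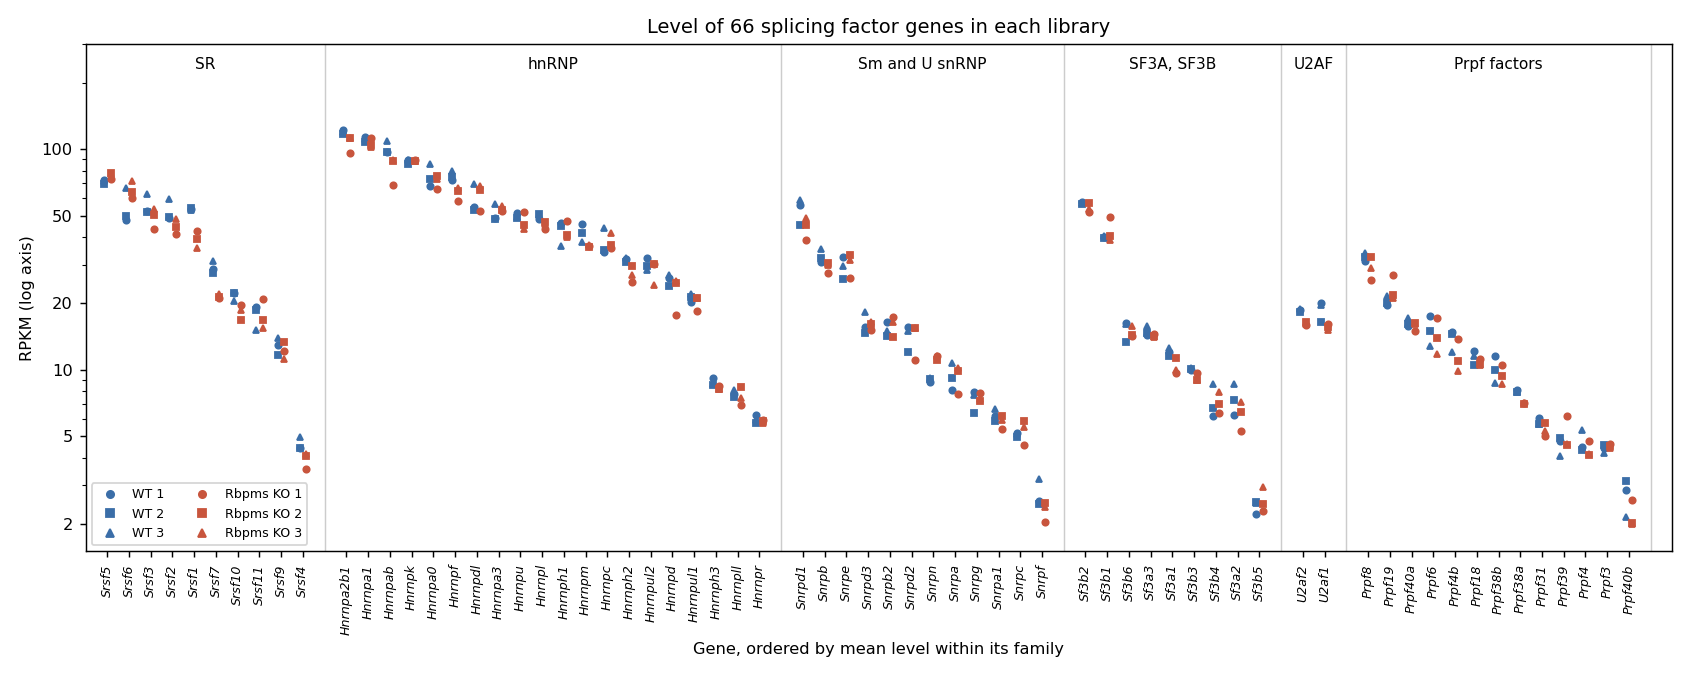
Level of each of the 66 genes in each library, in RPKM on a log axis, with genes ordered by mean level inside their family. Points are libraries, blue for WT and red for Rbpms KO, and the symbol gives the replicate number; for most genes the colours lie close together beside a range from 2.46 to 113 RPKM between genes.

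The targeted gene checked the labels: Rbpms stood at 33.1, 35.7 and 38.1 RPKM in the WT libraries and at 0.594, 0.276 and 0.240 RPKM in the knockout libraries. The 8 heart muscle markers were abundant in all libraries, with sums of 12300 to 13600 RPKM in WT and 8860 to 12400 RPKM in the knockout. Of these markers 1 was called higher and 1 lower. Markers of other cells differed between the groups. The 7 airway secretory markers summed to 694 to 978 RPKM in WT and 0.499 to 20 RPKM in the knockout, and all 7 were called lower. The 5 smooth muscle markers summed to 1020 to 1190 RPKM in WT and 340 to 445 RPKM in the knockout, with 3 called lower. The 4 endothelial markers summed to 150 to 171 RPKM in WT and 185 to 208 RPKM in the knockout, with 1 called higher. Immune markers summed to 21.4 to 22.4 RPKM in WT and 16.2 to 19.7 RPKM in the knockout, and neuron markers to 3.51 to 4.42 and 1.3 to 2.05 RPKM, with 1 called lower in each list. The 6 markers of dividing cells overlapped between the groups, with 121 to 139 RPKM in WT and 103 to 131 RPKM in the knockout and the lowest sum in knockout replicate 1. Fibroblast markers overlapped as well, at 356 to 514 and 359 to 477 RPKM. Red blood cell markers reached 2410 RPKM in WT replicate 3 beside 689 to 906 RPKM in the other libraries. Airway secretory cells are not cells of the heart ventricle, the tissue on the labels, yet their markers were high in every WT library. Whether other tissue was taken along with some samples was not tested and cannot be told apart from genotype here. The part of all these cells in the results below was not tested, and in bulk tissue fewer cells of a type and less RNA per cell cannot be told apart. The closest libraries were WT replicates 1 and 2, whose log2 ratio had an SD of 0.132 over 3677 genes against 0.244 to 0.496 for the remaining pairs, and the labels call all libraries biological replicates without saying how many animals went into each. P-values therefore measure the spread between these libraries, and the depth is unknown because the table gives no counts.

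The level of most splicing factor genes differed little between WT and Rbpms KO. In the limma fit over 12911 genes, 3 of the 66 genes were called at an adjusted p below 0.05, which is 4.55% of them against 6.37% of all genes tested. The calls were 2 falls, Srsf1 and Srsf7, against 3.99% of all genes, and 1 rise, Snrpn, against 2.38% of all genes. At an unadjusted p below 0.05 there were 13 of 66 genes, against 23.5% of all genes. Changes ran from -0.45 to 0.33 on the log2(RPKM + 0.5) scale. A change smaller than 1.2-fold was found for 62 of the 66 genes, against 74.6% of all genes, and none of the 66 reached 1.5-fold, against 5.2% of all genes. These shares were not matched for level, and the 66 genes had a median of 17.3 RPKM against 4.72 RPKM over all genes tested. Whether the narrower range is particular to splicing factor genes was not tested. The authors' deposited table called the same 3 genes at FDR below 0.05, against 11.1% of all genes, with the 2 falls against 5.64% and the rise against 5.45%.

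The log2 change was below 0 for 48 of the 66 genes and above 0 for 18, beside 7233 of the 12911 genes tested below 0 and 5678 above, with a median of -0.08 against -0.03 over all genes tested. After each library was rescaled by its median ratio, which moved the calls over all genes from 307 higher and 515 lower to 412 higher and 442 lower, 44 splicing factor genes lay below 0 and 22 above, with a median of -0.05 against -0.01. Every knockout library lay below every WT library for 18 of the 66 genes, against 18.2% of all genes, and above every WT library for 2, against 11.6%, which makes 20 of 66 with groups apart against 29.8% of all genes. The median deviation of the 66 genes from their own means over 6 libraries was 0.06, 0.01 and 0.09 in WT and -0.09, -0.03 and -0.04 in the knockout, on the log2 scale. All 3 WT values lay above all 3 knockout values, while the same medians over all genes ran from -0.06 to 0.04 without separating the groups. These medians were taken without rescaling. In WT replicate 2 the median of the 66 genes lay below that of all genes, at 0.01 against 0.02. In knockout replicate 3 it lay above that of all genes, at -0.04 against -0.06. Measured from the medians over all genes, the groups were therefore not apart. Knockout replicate 1 held the lowest knockout value for 37 of the 66 genes (56.1%), against 30.8% of all genes. The same library held the highest knockout value for 27 of them (40.9%), against 49.0% of all genes, so it was often the extreme in either direction. It also had the lowest sum of heart muscle markers, 8860 RPKM. WT replicate 2 held the lowest WT value for 34 of the 66 genes (51.5%), against 25.2% of all genes.

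**Figure D2:**
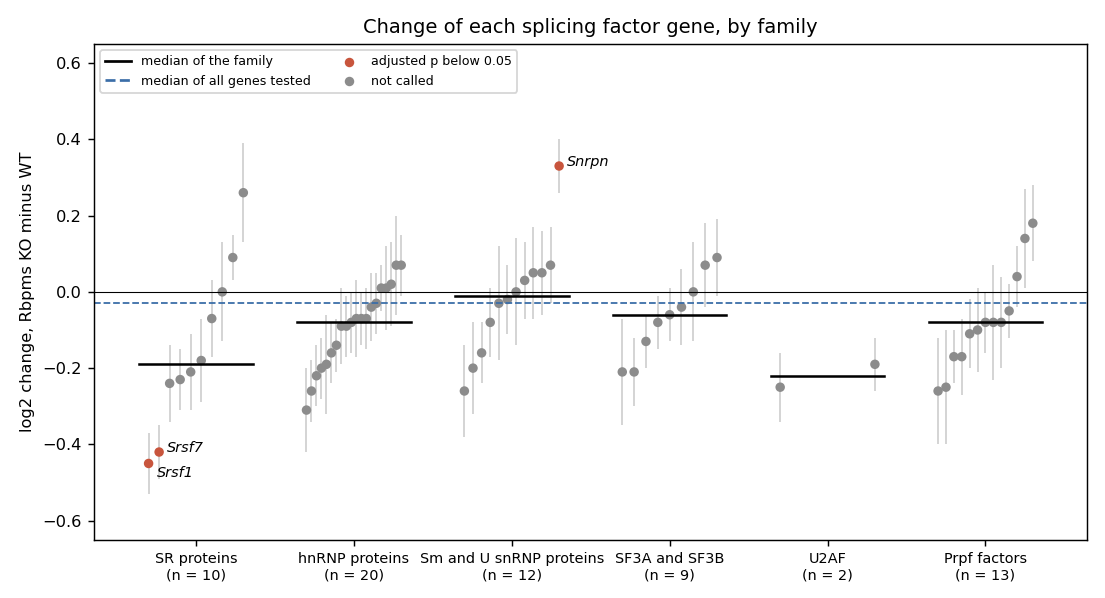
Change of each of the 66 genes, as the difference of mean log2(RPKM + 0.5) in Rbpms KO minus WT, with its standard error as a grey line, by family. Red points are the genes called by limma, black lines are family medians from -0.22 to -0.01, and the dashed line is the median of all genes tested, -0.03; Srsf1 and Srsf7 lie lowest and Snrpn highest.

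The SR family held both called falls. Srsf1 (ENSMUSG00000018379, chromosome 11, 88047373 to 88053755 on the plus strand of GRCm38) encodes an SR protein that recruits U1 snRNP to 5′ splice sites, and its deletion in mouse heart disturbs the splicing of a calcium-dependent kinase after birth. It stood at 53.7, 54.0 and 52.8 RPKM in WT and at 42.4, 39.2 and 35.8 RPKM in the knockout. The groups did not overlap, and the difference of the means was larger than the spread in either. Srsf1 fell from a mean of 53.5 ± 0.647 RPKM (SD, n = 3) to 39.1 ± 3.31 RPKM (SD, n = 3), a log2 change of -0.45 with a standard error of 0.08 (limma adjusted p = 0.0171).

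Srsf7 (ENSMUSG00000024097, chromosome 17, 80200080 to 80207307 on the minus strand) encodes an SR protein that also takes part in the export of mRNA. It measured 28.6, 27.5 and 31.0 RPKM in WT and 21.2, 21.4 and 22.1 RPKM in the knockout. The knockout libraries lay close together and below every WT library. Srsf7 fell from 29.0 ± 1.78 RPKM (SD, n = 3) to 21.6 ± 0.509 RPKM (SD, n = 3), a log2 change of -0.42 with a standard error of 0.07 (limma adjusted p = 0.0171). Both calls were lost without WT replicate 1, WT replicate 2 or knockout replicate 2, with adjusted p-values no higher than 0.0993 for Srsf1 and 0.0759 for Srsf7, and with WT replicates 1 and 2 counted as 1 sample, where it was 0.0861 and 0.0655. In the authors' deposited table the same genes were lower, with a log2 change of -0.41 for Srsf1 (FDR 0.00181) and -0.39 for Srsf7 (FDR 0.00882).

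The other 8 SR genes did not pass the test. The log2 change was -0.24 for Srsf2, which binds exonic enhancers, with a limma adjusted p of 0.20, and -0.23 for Srsf10, an SR protein that represses splicing when dephosphorylated, with 0.134. The least abundant SR gene, Srsf4, had 4.6 RPKM in WT and 3.92 RPKM in the knockout, with no overlap between the groups (log2 change -0.21, limma adjusted p = 0.246). Srsf6 had the largest positive log2 change of the family. It measured 47.7, 49.8 and 66.9 RPKM in WT and 60, 63.8 and 71.8 RPKM in the knockout. The groups overlapped through WT replicate 3 (log2 change 0.26, limma adjusted p = 0.286), and without that library the adjusted p was 0.0478; this gene was singled out after its values were seen. Srsf5, the most abundant SR gene, measured 72.3, 69.9 and 71.7 RPKM in WT and 73.0, 77.7 and 77.4 RPKM in the knockout. Its knockout values all lay above the WT values by a small margin (log2 change 0.09, limma adjusted p = 0.435). Over the 10 SR genes the median log2 change was -0.19, and it was -0.12 without WT replicate 3 and -0.13 without knockout replicate 1.

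**Figure D3:**
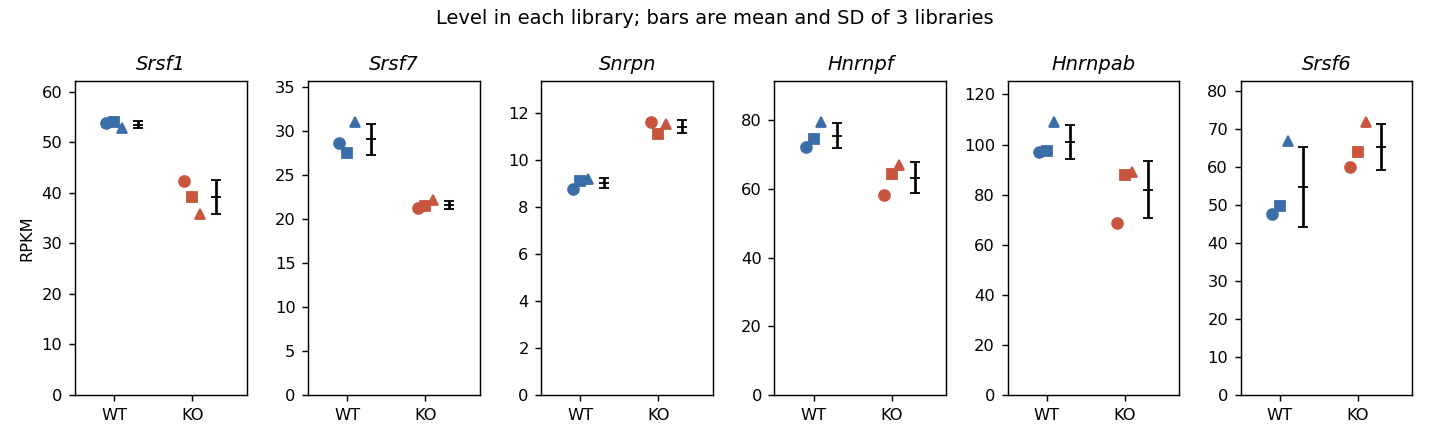
RPKM in each library for 6 genes: the called genes Srsf1, Srsf7 and Snrpn, the hnRNP genes Hnrnpf and Hnrnpab, and Srsf6. Points are libraries, with the symbol for the replicate number (circle 1, square 2, triangle 3), bars are the mean and SD of 3 libraries, and each axis starts at 0; the groups are apart for all shown except Srsf6.

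None of the 20 hnRNP genes was called by limma, and 4 had an unadjusted p below 0.05, against 23.5% of all genes. The authors' deposited table called none of them at FDR below 0.05. Of these 20 genes 15 had a log2 change below 0, as had 7233 of the 12911 genes tested, and 7 had every knockout library below every WT library, against 18.2% of all genes. The median log2 change was -0.08. Hnrnpab, an hnRNP of the A/B type that also binds single-stranded DNA, had the largest difference. It measured 96.9, 97.3 and 109 RPKM in WT and 68.7, 88.0 and 88.9 RPKM in the knockout. Knockout replicate 1 stood well below the other libraries, and the groups did not overlap (log2 change -0.31, limma adjusted p = 0.141, and -0.19 on the log2 scale without knockout replicate 1). Hnrnpf, which binds runs of guanine beside regulated exons, came next. Its values were 72.3, 74.6 and 79.5 RPKM in WT and 58.2, 64.4 and 67.0 RPKM in the knockout. The groups were again apart, with a log2 change of -0.26 and a limma adjusted p of 0.0977.

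The most abundant of the 66 genes, Hnrnpa2b1, had 122, 117 and 120 RPKM in WT and 96.2, 112 and 113 RPKM in the knockout. The groups did not overlap, and knockout replicate 1 was the lowest (log2 change -0.16, limma adjusted p = 0.271), with a log2 change of -0.09 without that library. Hnrnpa1, its close relative and a common splicing repressor, had means of 111 and 106 RPKM, and Hnrnpk, which binds runs of cytosine, had 87.9 and 88.7 RPKM. Hnrnpr was the least abundant of the family, with means of 5.97 and 5.82 RPKM.

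Among the 12 Snrp genes the median log2 change was -0.01, and 1 was called. Snrpn (ENSMUSG00000102252, chromosome 7, 59982495 to 60140219 on the minus strand) is an imprinted gene for SmN, the counterpart of the general Sm protein SmB in brain and heart. It measured 8.77, 9.10 and 9.16 RPKM in WT and 11.6, 11.1 and 11.5 RPKM in the knockout. The libraries of each group lay close together, and all knockout values stood above all WT values. Snrpn rose from 9.01 ± 0.208 RPKM (SD, n = 3) to 11.4 ± 0.275 RPKM (SD, n = 3), a log2 change of 0.33 with a standard error of 0.07 (limma adjusted p = 0.0363). The authors' deposited table gave a log2 change of 0.39 (FDR 0.0317). The call was lost in each of the 6 fits that left out 1 library, where the log2 change stayed between 0.31 and 0.35 and the limma adjusted p between 0.0525 and 0.17. On the same strand Snrpn overlaps Snurf and Gm38393 in the annotation, so reads of this locus may be split between genes and the value is uncertain.

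Snrpb, the gene of SmB itself, measured 30.7, 32.2 and 35.3 RPKM in WT and 27.6, 30.4 and 29.9 RPKM in the knockout. Its groups did not overlap, with the difference in the direction opposite to that of Snrpn (log2 change -0.16, limma adjusted p = 0.285). Snrpd1, another protein of the Sm ring and the most abundant Snrp gene, had 55.8, 45.3 and 58.7 RPKM in WT and 38.7, 45.3 and 49.0 RPKM in the knockout. The groups overlapped (log2 change -0.26, limma adjusted p = 0.244). Snrpf, also of the Sm ring, was the least abundant, with means of 2.74 and 2.31 RPKM. The other Snrp genes lay nearer to no change, such as Snrpc, a U1 snRNP protein, with means of 5.09 and 5.31 RPKM.

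Recognition of the 3′ splice site and the branch point was covered by 11 genes, and none was called. Both U2AF subunits had every knockout library below every WT library, as had 18.2% of all genes. U2af2, which binds the pyrimidine tract, measured 18.6, 18.3 and 18.8 RPKM in WT and 15.9, 16.5 and 16.1 RPKM in the knockout. U2af1, which reads the AG, measured 20.1, 16.4 and 19.7 RPKM in WT and 16.1, 15.6 and 15.1 RPKM in the knockout. The gap was wide beside the spread for U2af2 and narrow for U2af1, whose WT replicate 2 lay near the knockout values. The log2 changes were -0.19 for U2af2 and -0.25 for U2af1, with limma adjusted p-values of 0.123 and 0.158.

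In SF3A and SF3B the median log2 change over 9 genes was -0.06. Sf3b2, the most abundant, had means of 57.3 and 54.2 RPKM, and Sf3b1, the subunit that clamps the branch point, had 40.1 and 42.9 RPKM. Sf3a1, a subunit of U2 snRNP, measured 12.0, 11.5 and 12.5 RPKM in WT and 9.65, 11.3 and 10 RPKM in the knockout. The groups were apart by a small margin (log2 change -0.21, limma adjusted p = 0.188). Sf3a2, which contacts the branch point region, had the same log2 change of -0.21 with overlapping groups (limma adjusted p = 0.420), which ran from -0.32 without WT replicate 1 to -0.10 without WT replicate 3 or knockout replicate 1. Sf3b5, a small subunit and the least abundant, had means of 2.41 and 2.57 RPKM (log2 change 0.07, limma adjusted p = 0.745).

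The 13 Prpf genes had a median log2 change of -0.08 and no call. Prpf8, the large protein that frames the catalytic centre, was the most abundant and had 31.2, 32.6 and 33.9 RPKM in WT and 25.5, 32.6 and 29.0 RPKM in the knockout. WT replicate 2 and knockout replicate 2 stood at the same level, so the groups overlapped (log2 change -0.17, limma adjusted p = 0.339). Prpf4b, a kinase that acts on spliceosomal proteins, had means of 13.8 and 11.5 RPKM (log2 change -0.26, limma adjusted p = 0.298), and Prpf40b had 2.72 and 2.20 RPKM (log2 change -0.25, limma adjusted p = 0.356). With 1 library left out, these changes ran from -0.39 without knockout replicate 1 to -0.16 without knockout replicate 3 for Prpf4b, and from -0.38 without WT replicate 3 to -0.15 without WT replicate 2 for Prpf40b. Prpf38a, a factor needed for activation of the spliceosome, was the member of the family with groups that did not overlap, at 8.11, 7.95 and 7.96 RPKM in WT and 7.08, 7.02 and 7.05 RPKM in the knockout. Its libraries agreed closely within each group (log2 change -0.17, limma adjusted p = 0.205). Prpf19, the ubiquitin ligase of the complex named after it, had the largest positive log2 change of the family, 0.18, with 26.8 RPKM in knockout replicate 1 beside 21.9 and 21.1 RPKM in the other knockout libraries (limma adjusted p = 0.332).

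The remaining splicing genes were read from 9 lists with 105 members, of which 103 were tested. Of these 3 were called by limma, all lower, which is 2.91% against 6.37% of all genes, and the median log2 change was -0.06. Sart3, which recycles U4 and U6 snRNP, measured 5.52, 5.82 and 6.18 RPKM in WT and 3.87, 4.30 and 4.02 RPKM in the knockout (log2 change -0.47, limma adjusted p = 0.0219). Dhx35, a helicase of the catalytic spliceosome, measured 4.37, 4.86 and 4.06 RPKM in WT and 3.10, 2.92 and 3.18 RPKM in the knockout (log2 change -0.47, limma adjusted p = 0.0329). Ppil1, a prolyl isomerase bound to the spliceosome, measured 12.3, 10.8 and 9.65 RPKM in WT and 6.83, 8.37 and 7.45 RPKM in the knockout (log2 change -0.50, limma adjusted p = 0.0409). For each of these genes the groups did not overlap. Sart3 and Dhx35 were no longer called without WT replicate 1, WT replicate 2, knockout replicate 2 or knockout replicate 3, and Ppil1 without any library other than WT replicate 3, with limma adjusted p-values of up to 0.124 for Sart3, 0.182 for Dhx35 and 0.162 for Ppil1. Ppil1 was also lost after rescaling, at 0.0611, and without a mean-variance trend, at 0.0554. With WT replicates 1 and 2 as 1 sample none of the 3 was called, with limma adjusted p-values of 0.0907 for Sart3, 0.141 for Dhx35 and 0.151 for Ppil1.

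By list, the calls were 1 of 12 other snRNP proteins, 1 of 10 helicases and 1 of 14 proteins of the Prp19 complex, and there was none among the 8 LSm, 9 minor spliceosome, 12 SR-related, 12 otherwise named hnRNP, 15 exon junction and decay, and 11 SMN and Sm assembly genes tested. The SMN and Sm assembly genes, which load the Sm ring onto snRNA, had the lowest median log2 change of these lists, -0.15, and 6 of the 11 had every knockout library below every WT library, against 22 of the 103 genes of all these lists and 18.2% of all genes. Prmt5, the methyltransferase that modifies Sm proteins, had 12.2, 13.4 and 12.1 RPKM in WT and 10.3, 10.1 and 10.6 RPKM in the knockout (log2 change -0.27, limma adjusted p = 0.0827). Gemin2, a core subunit of the SMN complex, had a log2 change of -0.32 (limma adjusted p = 0.0958). Tra2b, an SR-related activator of exons, had -0.28 with 0.141, and Eif4a3, the helicase of the exon junction complex, had -0.25 with 0.120 from limma. Smg1, the kinase of nonsense-mediated decay, differed in the other direction. Its values were 5.82, 5.98 and 5.52 RPKM in WT and 10.8, 6.62 and 7.20 RPKM in the knockout, with knockout replicate 1 the highest and no overlap between the groups (log2 change 0.44, limma adjusted p = 0.154, and 0.24 on the log2 scale without knockout replicate 1).

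The splicing of these genes was read from the authors' deposited table, which gives an inclusion level from 0 to 1 for each of 3 libraries in a first and a second set. Its headers do not name the genotype of either set. No genotype was assigned to the sets here, so no direction of change with loss of Rbpms is given, and differences are first minus second set. Of the 198 skipped exon events, which lay in 56 of the 66 genes, 1 passed the authors' FDR of 0.05 with a difference of at least 0.1, against 1.13% of all events in the authors' deposited table. Without a minimum difference there were 3, against 1.36%. The sets did not overlap for 13 events, 8 of them in hnRNP genes, against 4.72% of all events. At least 10 junction reads per library on average were present for 187 events, and for 181 of those the sets differed by less than 0.1, with a median absolute difference of 0.008. Most of the covered exons were nearly always included, since 119 of the 187 had mean levels above 0.9 in both sets, and 25 had levels below 0.1 in both.

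All 3 events with an FDR below 0.05 in the authors' deposited table concerned exons that end the reading frame in a transcript annotated for nonsense-mediated decay, the pathway that destroys mRNAs with an early stop codon. Of the 198 events, 26 held such a stop and 100 lay in an annotated decay transcript, so the annotation is common among these genes, and no test of the 3 events against it was made. The exon sequences up to that stop are shown in the sense of the transcript, from GENCODE release 21 on GRCm38, together with those of Srsf3, Hnrnpll and Srsf11 as examples of decay exons in further SR and hnRNP genes. Capitals mark the stop codon, and the coordinates run from the first base of the exon to the stop on the strand named in brackets.
Sf3b1, chr1:55014905-55014924 (minus): gcttctattctgctgctTGA
Hnrnpl, chr7:28817335-28817393 (plus): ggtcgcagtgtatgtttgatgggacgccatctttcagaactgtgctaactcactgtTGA
Hnrnph3, chr10:63018122-63018225 (minus): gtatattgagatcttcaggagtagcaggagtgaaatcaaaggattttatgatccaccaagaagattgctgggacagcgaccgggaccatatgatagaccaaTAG
Srsf3, chr17:29039454-29039487 (plus): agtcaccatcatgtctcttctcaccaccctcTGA
Hnrnpll, chr17:80044976-80045022 (minus): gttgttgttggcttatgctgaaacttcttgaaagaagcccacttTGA
Srsf11, chr3:158023310-158023359 (minus): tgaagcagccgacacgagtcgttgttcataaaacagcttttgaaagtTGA

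The Sf3b1 exon (chromosome 1, 55014869 to 55014924, 56 bases) reaches its stop after 17 bases. Its inclusion levels in the authors' deposited table were 0.051, 0.035 and 0.043 in the first set and 0.112, 0.085 and 0.116 in the second. All levels of the second set lay above those of the first, while the exon was skipped in most junction reads of every library. The reads behind them were 14, 9 and 12 for inclusion beside 149, 143 and 152 for skipping in the first set, and 27, 21 and 23 beside 123, 130 and 101 in the second. The difference was -0.061 (FDR 0.00398 in the authors' deposited table), below the minimum of 0.1.

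The Hnrnpl exon (chromosome 7, 28817335 to 28817404, 70 bases) belongs to the gene of an hnRNP that binds CA repeats. The authors' deposited table listed levels of 0.050, 0.047 and 0.028 in the first set and 0.021, 0.017 and 0.022 in the second. Here the first set was the higher, with 21 to 33 inclusion reads per library against 11 to 12 in the second set. The difference of 0.022 had an FDR of 0.0285 in the authors' deposited table. For both exons, adding the reads inside the exon left the result on the same side, with an FDR of 0.00376 for Sf3b1 and 0.0272 for Hnrnpl in the authors' deposited table.

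The event of at least 0.1 was in Hnrnph3, an hnRNP of the H and F type that binds guanine-rich RNA. It concerned the exon on chromosome 10 from 63018041 to 63018225 (185 bases), spliced directly to the exon at 63019393 to 63019527 without the 139-base exon between them. In that order the frame meets the stop shown above, whereas the same exon is coding when the 139-base exon is present. Inclusion in the authors' deposited table was 0.950, 0.765 and 0.952 in the first set and 1.0 in all libraries of the second, a difference of -0.111 (FDR 0.0429). The difference rested on 1, 6 and 1 skipping reads in the first set against 0 in each library of the second, and the library with 6 stood apart from the others. With reads inside the exon added, the difference was -0.087 and the FDR 0.104 in the authors' deposited table, so the event was not called. The 139-base exon itself had levels of 0.585, 0.615 and 0.768 in the first set and 0.452, 0.433 and 0.761 in the second, with overlap between the sets (FDR 1.0 in the authors' deposited table). The expression of Hnrnph3 was 8.80 RPKM in WT and 8.26 RPKM in the knockout (log2 change -0.09, limma adjusted p = 0.536).

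**Figure D4:**
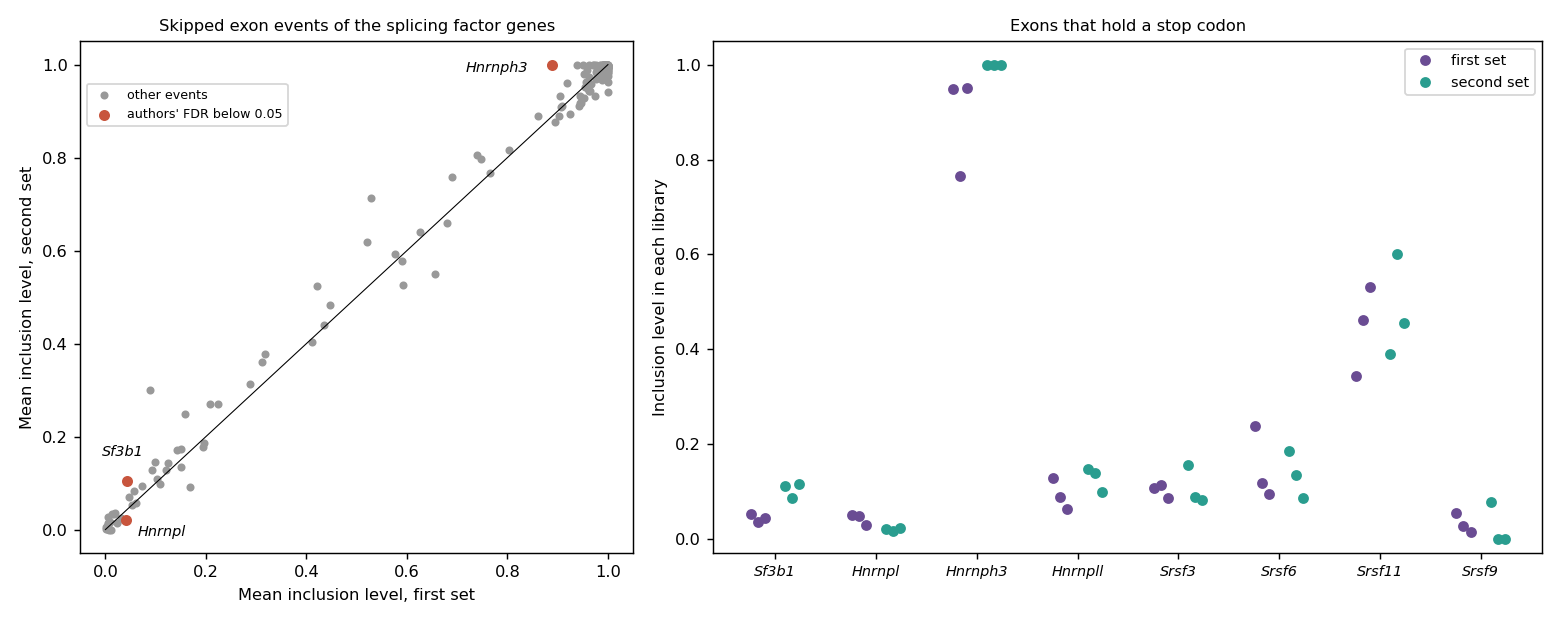
Left, mean inclusion level of each covered skipped exon event of the 66 genes in the first set (horizontal) and the second set (vertical), with the 3 events of authors' FDR below 0.05 in red and the line of equal levels. Right, inclusion level in each library for 8 exons that hold a stop codon in a decay transcript; Sf3b1 and Hnrnpl levels are low and apart, Hnrnph3 has 1 library at 0.765, and the sets overlap for the other 5.

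Exons that hold the stop of an annotated decay transcript and lie in no coding transcript gave 18 covered events of 17 exons in 15 of these genes. The sets differed by a median of 0.0185 and by at most 0.061 in absolute size, with 10 differences below 0 and 8 above. The sets were apart for 3 of the 18, against 4.72% of all skipped exon events, a share taken without a minimum of reads. They were apart for Sf3b1, Hnrnpl and a 141-base exon of Prpf4b. The Prpf4b exon rested on 0, 1 and 0 inclusion reads in the first set and 1, 2 and 1 in the second. Sf3b1 and Hnrnpl were the 2 with an FDR below 0.05 in the authors' deposited table, against 1.36% of all events. Both were already described among the events of that FDR, so neither count is further evidence. The Srsf3 exon (chromosome 17, 29039454 to 29039909, 456 bases), in the gene of the smallest SR protein, had levels of 0.107, 0.113 and 0.086 in the first set and 0.156, 0.088 and 0.081 in the second in the authors' deposited table. The Hnrnpll exon (chromosome 17, 80044940 to 80045022, 83 bases) had 0.127, 0.087 and 0.062 in the first set and 0.148, 0.139 and 0.099 in the second. For both the sets overlapped. The Srsf11 exon (chromosome 3, 158023243 to 158023359, 117 bases), in the gene of an SR-related protein, was listed in 2 events, whose levels depend on the exon it is joined to. In the authors' deposited table they were 0.343, 0.462 and 0.532 in the first set and 0.390, 0.600 and 0.455 in the second with the exon starting at 158026725 upstream, and 1.0, 0.949 and 0.892 against 1.0, 0.824 and 0.931 with the 109-base exon that lies between as the upstream exon. The sets overlapped in both. The decay exon of Srsf6 (268 bases) had 0.238, 0.118 and 0.095 in the first set and 0.186, 0.134 and 0.086 in the second, and that of Srsf9 (358 bases), a small SR protein, had 0.053, 0.027 and 0.014 and 0.077, 0 and 0. Neither separated the sets.

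The genes with called levels, Srsf1, Srsf7 and Snrpn, had no called event, where 1.13% of all skipped exon events were called. Few skipped exon events and no retained intron were listed for them, so this says little about their splicing. In the authors' deposited table the 187-base exon of Srsf1 was included at 0.873, 0.934 and 0.876 in the first set and 0.930, 0.906 and 0.793 in the second. The 36-base exon of Srsf7 was included at 0.796, 0.811 and 0.806 in the first set and 0.847, 0.814 and 0.791 in the second. Levels overlapped for both exons, and the authors' FDR was 1.0. Among the 86 covered hnRNP events 84 differed by less than 0.1 between the sets, and the following exons were picked after their values were seen. The 147-base exon of Hnrnpd, the AU-rich element binding protein AUF1, had 0.618, 0.625 and 0.638 in the first set and 0.609, 0.644 and 0.671 in the second in the authors' deposited table. The 57-base exon of the same gene had means of 0.680 and 0.660, and the 141-base exon of Hnrnpab had means of 0.194 and 0.177. The 120-base exon of Hnrnpa2b1 had means of 0.577 and 0.593. Other hnRNP exons had a low unadjusted p but no FDR below 0.05 in the authors' deposited table. A 50-base exon of Hnrnph1 had means of 0.919 and 0.961 (FDR 0.123), a 105-base exon of Hnrnpdl 0.0563 and 0.0837 (FDR 0.632) and a 36-base exon of Hnrnpa2b1 0.072 and 0.0933 (FDR 0.677). A 229-base exon of Hnrnpc had means of 0.158 and 0.249 in the authors' deposited table (FDR 1.0), and the sets overlapped for these 4 exons.

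The event with the largest difference among those covered was in Prpf4b, at -0.213 in the authors' deposited table. This 73-base exon (chromosome 13, 34903530 to 34903602) had 0.060, 0.078 and 0.126 in the first set and 0.225, 0.458 and 0.220 in the second. The sets were apart but rested on 32 and 33 reads in all, and the FDR was 0.232. A 199-base exon of Prpf19 had 0.923, 0.867 and 0.867 in the first set and 1.0 throughout the second in the authors' deposited table, which came from 1 skipping read in each library of the first set (FDR 1.0).

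Of the 22 retained intron events none was called, against 1.11% of all such events in the authors' deposited table, and none had an FDR below 0.05, against 1.27%. An unadjusted p below 0.05 was listed for 1 of the 22, and the sets were apart for none of the 22, against 6.41% of all events. The 17 covered events had a median absolute difference of 0.005. Mean levels were below 0.1 in both sets for 10 of them and above 0.9 in both for 1, so the difference of these could not reach 0.1. The best covered intron with frequent retention was in Hnrnpm, the gene of an hnRNP that binds G- and U-rich sequence, at 0.345, 0.386 and 0.365 in the first set and 0.293, 0.331 and 0.374 in the second in the authors' deposited table. An intron of Hnrnpl was retained at 0.210, 0.177 and 0.206 in the first set and 0.227, 0.202 and 0.192 in the second, and a long intron of Hnrnph1 (2572 bases) at 0.609, 0.491 and 0.487 and at 0.538, 0.543 and 0.627. The sets overlapped for all 3 introns. The intron of Sf3b1 that contains the decay exon had a mean level of 0.0897 in the first set and 0.0957 in the second in the authors' deposited table.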

How the data were processed

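Expression values were RPKM, as deposited by the authors, and multiplied by gene length they add up to 1000000 per library. Whole reads could not be recovered, since at the best step 40.7 to 69.6% of low values came within 0.1 of a whole number. The submitters' processing notes name FastQC 0.11.4, featureCounts 1.6.0, edgeR 3.30.1, GRCm38 and mm10; the aligner is not given in the sources used here. A gene was tested if 3 or more of the 6 libraries had 0.5 RPKM or more, with limma 3.58.1 in R 4.3.3 on log2(RPKM + 0.5), with eBayes (trend) and p-values adjusted by Benjamini-Hochberg over all 12911 genes, and called at an adjusted p below 0.05. The fit was tested in 20 simulations over all genes tested, with 200 changed genes in each. It recovered 43.8% of 1.5-fold changes and 81.6% of 2-fold changes, and 4.47% of its calls were false. The simulated noise was drawn independently for each gene and library, so it lacked the closeness of WT replicates 1 and 2. These shares may therefore not hold for the real libraries. Smaller changes were not simulated, and a gene not called may still have changed.

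The log2 fold changes, p-values and FDR of the authors' deposited comparison were copied. So were inclusion levels, a score for their difference, p-values and FDR of the deposited rMATS tables, per the file headers. Commas lost between read counts were restored by cutting the digits to match printed levels within 0.00051; 58 of the 198 skipped exon events allowed more than 1 reading. Positions, exon sequences and decay transcripts came from GENCODE mouse release 21.

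Named genes were the called members, the highest and lowest in level and the 2 largest changes of each family, genes with called events, and the 2 smallest p-values of each other list; further genes and exons were named after their values were seen. The members, lists and alternatives were chosen with earlier results of these data known.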

Additional observations from a re-analysis of the deposited data

How the results depend on the processing

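Over all genes, 822 were called in the reported fit, 545 with the replicate number as a block and 211 with WT replicates 1 and 2 counted as 1 sample, and 192 to 868 when 1 library was left out. Of the 66 splicing factor genes 3 were called; with WT replicates 1 and 2 as 1 sample there were 0, with the replicate block 2, and with 1 library left out 0 to 3. The libraries whose omission left 0 were WT replicate 1, WT replicate 2 and knockout replicate 2. The block removed the calls of Snrpn (limma adjusted p = 0.08), Dhx35 (0.0719) and Ppil1 (0.0689). No pairing by replicate number was seen: the correlations of same-numbered deviations were 0.213, -0.271 and 0.122, and 0 of 3 correlated best with their own number. With 3 libraries per group the deviations depend on each other, so these values cannot exclude pairing. Other pseudocounts, no filter and rescaling kept the count at 3, and a fit without a mean-variance trend gave 2, without Snrpn (0.0554). The SR median log2 change ran from -0.25 to -0.12 when 1 library was left out. For single named genes, 482 comparisons with an alternative kept direction and call, 37 lost the call, and 1 changed sign: Sf3b5, at -0.01 without knockout replicate 3 and up to 0.13 without other libraries. Most of the 482 belong to genes that were not called in the reported fit and stayed so. Called genes were less stable: of 13 alternatives, Srsf1 and Srsf7 each kept the call in 9 and Snrpn in 4. Of the skipped exon events, 0 were called at an FDR below 0.01, 0 at a difference of at least 0.2, 0 with reads inside the exon added, and 3 with no minimum difference. Retained introns stayed at 0 throughout. Depth is unknown for levels, and low junction counts limit the events.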
